A study of Homo sapiens with 6 samples.

Results

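The carcinoma epithelial surface antigens described here are 7 genes, chosen by symbol: EPCAM, CEACAM1, CEACAM5, CEACAM6, MSLN, PROM1 and PROM2. All 7 were found among the 59050 gene symbols of the count files, and 6 of them were among the 17809 genes tested. PROM1 had too few reads to be tested. The counts come from RNA-seq of H2122, an established human lung cancer cell line, with 3 libraries of cells labelled SMARCA4 KO and 3 of the parental line, labelled WT. Every library was of total RNA from vehicle-treated cells, and no other agent or allele is named. SMARCA4 is a catalytic subunit of SWI/SNF, a family of complexes that move nucleosomes, and the series title places the study in anti-tumor immunity and STING signalling. The sample titles carry a further number, which is 1 for each knockout library and 1, 3 and 6 for the parental libraries, with no statement of its meaning. Were it a clone number, all knockout libraries would come from 1 clone. The labels do not say that replicates were separate cultures, so the p-values reflect the spread among these samples alone, and that spread may be technical.

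These genes encode cell-surface glycoproteins that are abundant on many carcinomas and serve as tumour markers or targets of antibodies. EPCAM is an adhesion molecule of epithelial cells that pairs with claudin-7 and is cut by surface and intramembrane proteases. The CEACAM proteins belong to the immunoglobulin superfamily. CEACAM5, the carcinoembryonic antigen measured in serum, and CEACAM6 are held in the membrane by a GPI lipid anchor, whereas CEACAM1 spans the membrane and can carry inhibitory signalling motifs in its tail. Mesothelin, encoded by MSLN, is a GPI-anchored protein of mesothelium and of several carcinomas that binds the mucin MUC16. The prominins PROM1 (CD133) and PROM2 are membrane proteins of protrusions such as microvilli.

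Gene reads numbered 55120937 to 59917980 per library. The limit of detection, taken as 3 reads, corresponds to 0.0497 to 0.0544 CPM, a read count scaled to library size with TMM factors. This limit covers counting error only. SMARCA4 itself had 231.4, 214.3 and 334.8 CPM in the parental libraries against 20.7, 19.3 and 24.9 CPM in those labelled knockout. Parental replicate 3 stood apart from the other parental libraries. Its counts differed from theirs with a chi-square per degree of freedom of 363.7 and 378.8, against 8.22 between parental replicates 1 and 2 and 5.55 to 20.6 among the knockout libraries. Changes of the tested members are therefore given with and without it, and those of other genes mostly with it only.

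Of the 6 genes tested, 5 fell and 1 rose in the knockout by edgeR's quasi-likelihood test at an adjusted p under 0.05. Over all genes tested, 14.3% fell and 13.3% rose, 27.6% in all. The members and the gene lists below were chosen with earlier results of these data known, so such shares are no blind comparison. The knockout and parental values did not overlap for any of the 6 genes, which was also so for 49.8% of all genes tested. The median log2 fold change of the 6 genes was -2.67, against 0.02 over all genes. Without parental replicate 3 the same 6 genes passed in the same directions, in a fit where 61.6% of all genes passed. In bulk RNA, fewer cells with a transcript and less of it per cell cannot be told apart.

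**Figure D1:**
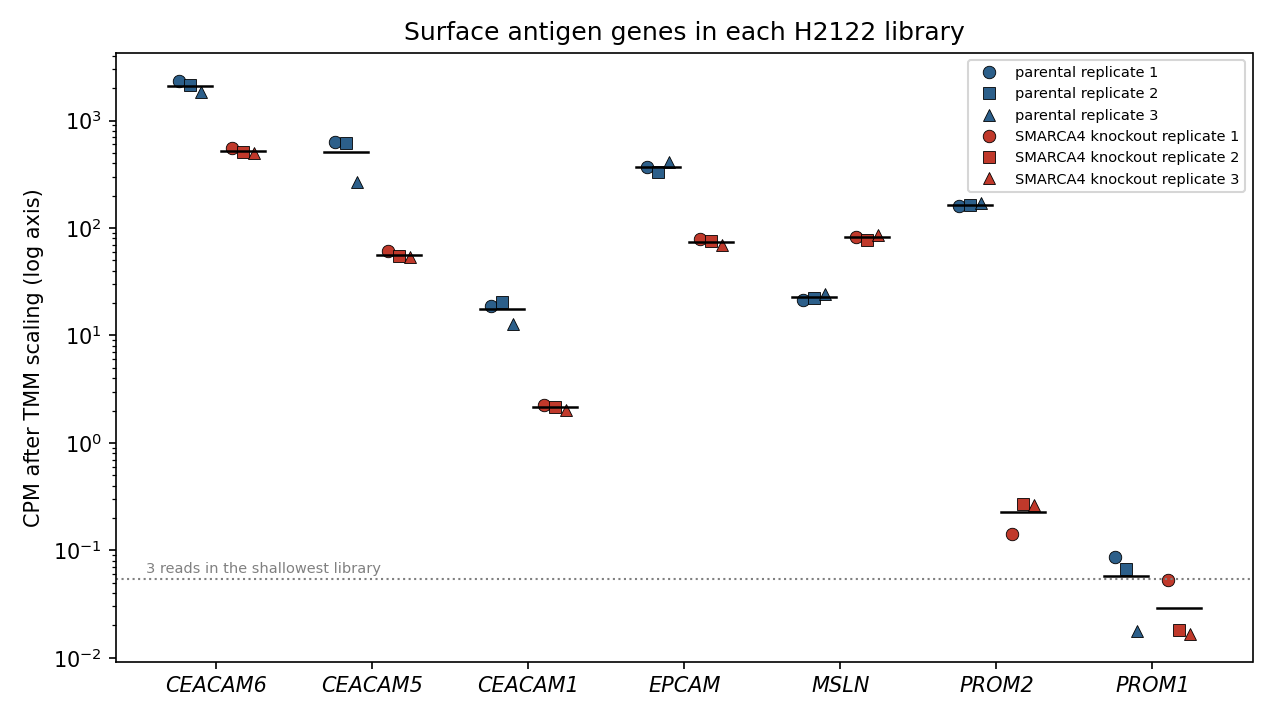
CPM of the 7 surface antigen genes (log axis) in each of the 3 parental (blue) and 3 knockout (red) libraries, with marker shape for the replicate, a black line for the group mean and a dotted line at 3 reads in the shallowest library. MSLN alone is higher in the knockout among the 6 tested genes, PROM2 goes from 158.6 to 169.9 CPM in the parental libraries to at most 0.272 CPM in the knockout, and PROM1 lies around or below the dotted line in most libraries.

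EPCAM (chromosome 2, 47345158 to 47387601 on GRCh38, plus strand) had 370.9, 330.8 and 409.4 CPM in the parental libraries and 78.61, 75.05 and 68.89 CPM in the knockout libraries. The lowest parental value lay far above the highest knockout value, and parental replicate 3 held the most EPCAM of all. The gene fell from 370.3 ± 39.3 to 74.2 ± 4.92 CPM (SD, n = 3 each), a log2 fold change of -2.32 (SE 0.13, edgeR adjusted p = 0.000102). It was -2.29 without parental replicate 3. EPCAM-DT, the divergent transcript beside it, had 18, 20 and 3 reads in the parental and 5, 10 and 8 in the knockout libraries and did not pass (edgeR adjusted p = 0.422).

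The 3 CEACAM genes lie on chromosome 19. CEACAM5 is at 41708585 to 41729798 and CEACAM6 at 41750977 to 41772208 on the plus strand. CEACAM1 lies further along, at 42507304 to 42561234 on the minus strand. All 3 fell in the knockout. The 250 bases before each RefSeq start (GRCh38.p14) are shown because of this shared direction. Capitals mark the E-boxes CACGTG and CACCTG and the GC box GGGCGG, on either strand.
CEACAM5, chr19:41708376-41708625, plus strand: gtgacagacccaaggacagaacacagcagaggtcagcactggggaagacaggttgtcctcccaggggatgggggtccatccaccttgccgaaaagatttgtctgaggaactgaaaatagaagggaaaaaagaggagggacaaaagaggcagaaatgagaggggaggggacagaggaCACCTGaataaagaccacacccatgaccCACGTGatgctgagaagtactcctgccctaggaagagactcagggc
CEACAM6, chr19:41755280-41755529, plus strand: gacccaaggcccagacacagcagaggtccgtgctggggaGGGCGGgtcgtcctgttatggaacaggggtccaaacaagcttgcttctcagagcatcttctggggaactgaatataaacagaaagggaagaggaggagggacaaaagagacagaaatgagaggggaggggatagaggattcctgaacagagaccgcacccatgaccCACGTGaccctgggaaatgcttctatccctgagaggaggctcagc
CEACAM1, chr19:42528482-42528731, minus strand: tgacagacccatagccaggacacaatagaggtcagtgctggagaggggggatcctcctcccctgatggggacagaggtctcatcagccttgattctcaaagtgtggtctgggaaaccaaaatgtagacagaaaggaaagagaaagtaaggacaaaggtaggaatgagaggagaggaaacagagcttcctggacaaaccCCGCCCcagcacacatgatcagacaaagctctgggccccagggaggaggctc
In a global alignment, CEACAM5 and CEACAM6 were identical at 78.5% of aligned bases, CEACAM6 and CEACAM1 at 74.4%, and CEACAM5 and CEACAM1 at 70.5%. The E-box CACGTG stood in the CEACAM5 window, beginning 46 bases before the start, and in the CEACAM6 window, beginning 45 bases before it, but these letters are not in the CEACAM1 window. It occurs in 6.34% of the 35116 promoter windows of this length. The E-box CACCTG, read on both strands, occurs in the CEACAM5 window, 74 bases before the start, and in 17.5% of all windows. GGGCGG, the GC box, occurs in the CEACAM6 and CEACAM1 windows and in 42.6% of all windows. The TATA motif TATAAA, not capitalised here, occurs in the CEACAM6 window, 139 bases before the start, and in 10.7% of all windows. The AP-1 motif TGANTCA, in 6.57% of all windows, and the grainyhead motif AACCNGTT, in 1.49%, are not among the letters of the 3 CEACAM windows. The windows hold 2, 5 and 1 CG dinucleotides for CEACAM5, CEACAM6 and CEACAM1, where the median over all windows is 11. These matches are letters in a window and were not tested as binding sites.

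CEACAM6 was the most abundant of the 7 genes, at 2352, 2167 and 1833 CPM in the parental libraries and 552.5, 507.4 and 495.0 CPM in the knockout libraries. Parental replicate 3 was the lowest parental library and still lay well above every knockout library. The gene fell from 2117 ± 262.8 to 518.3 ± 30.2 CPM, a log2 fold change of -2.03 (SE 0.14, edgeR adjusted p = 0.000239), and -2.17 without parental replicate 3. CEACAM6 was still an abundant transcript in the knockout. Per kb of exon it ranked 26 among 13460 protein-coding genes tested in the parental group and 149 in the knockout.

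CEACAM5 had 636.2, 620.2 and 269.6 CPM in the parental libraries and 61.0, 55.0 and 53.7 CPM in the knockout libraries. Parental replicate 3 held 0.429 of the mean of the other parental libraries, the widest departure among the tested members, but no value overlapped the knockout group. CEACAM5 fell from 508.7 ± 207.2 to 56.6 ± 3.86 CPM, a log2 fold change of -3.17 (SE 0.35, edgeR adjusted p = 0.00143). Without parental replicate 3 the change was -3.52 with an SE of 0.05.

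CEACAM1 was the least abundant of the 3, with 19.0, 20.6 and 12.9 CPM in the parental libraries and 2.26, 2.14 and 2.02 CPM in the knockout libraries. Here too parental replicate 3 was the lowest of its group, at 0.651 of the mean of the others. The gene fell from 17.5 ± 4.08 to 2.14 ± 0.121 CPM, a log2 fold change of -3.03 (SE 0.22, edgeR adjusted p = 0.000274), and -3.26 without that library. The knockout libraries still held 118 to 128 CEACAM1 reads each, well above the limit of 3 reads.

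Together the 3 CEACAM genes took 0.306%, 0.289% and 0.201% of all gene reads in the parental libraries and 0.0610%, 0.0565% and 0.0561% in the knockout libraries. Within that sum the share of CEACAM6 was 78.2%, 77.2% and 86.6% in the parental libraries and 89.7%, 89.9% and 89.9% in the knockout. CEACAM5 made up 21.2%, 22.1% and 12.7% of it in the parental libraries and between 9.74% and 9.90% in the knockout. The makeup was nearly the same in the 3 knockout libraries and varied in the parental group, where replicate 3 lay closer to the knockout.

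**Figure D2:**
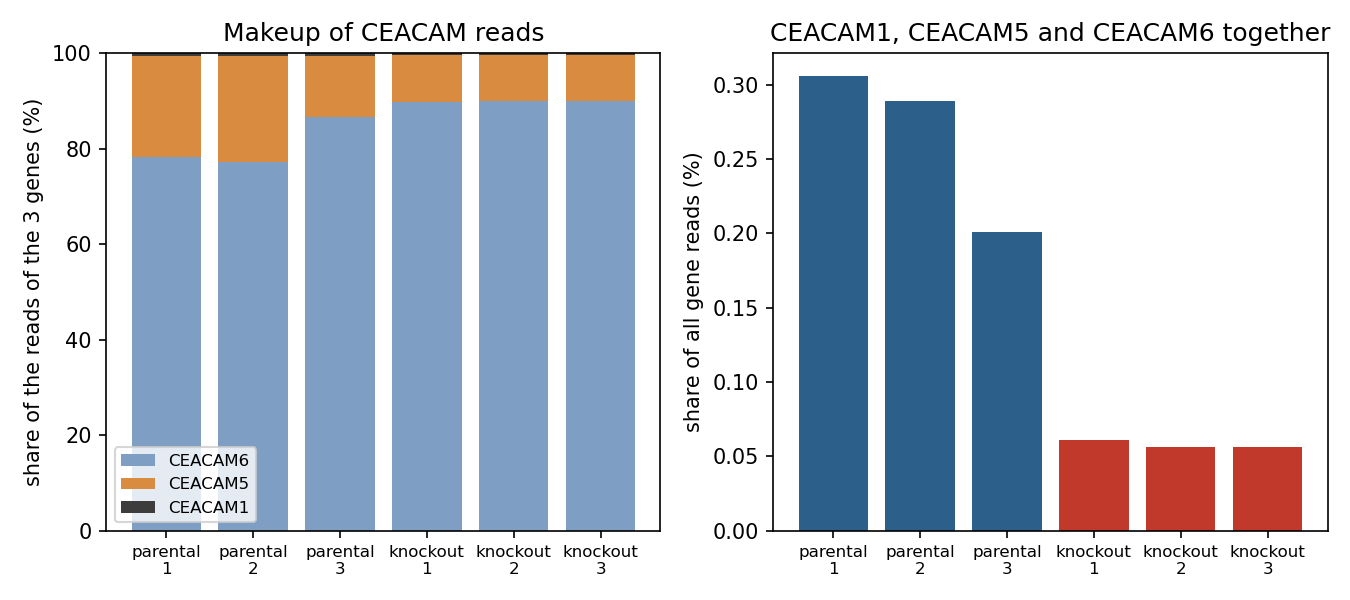
Left, the share of CEACAM6, CEACAM5 and CEACAM1 in the summed reads of the 3 genes (%), and right, their summed share of all gene reads (%), for each parental and knockout library. The CEACAM5 share is 21.2%, 22.1% and 12.7% in the parental libraries and at most 9.90% in the knockout, where the sum is at most 0.0610% of gene reads.

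The ratios between paralogs within a library do not depend on library scaling, and 4 pairs were compared by a two-sided exact permutation test, whose smallest p for 3 against 3 is 0.1. The log2 ratio of CEACAM5 to CEACAM6 reads was -1.89, -1.80 and -2.77 in the parental libraries and -3.18, -3.21 and -3.20 in the knockout. The groups did not overlap, and the mean difference of -1.04 gave the smallest p that the design allows (exact p = 0.1, adjusted p = 0.133 over the 4 pairs). It was -1.35 without parental replicate 3. CEACAM6 to CEACAM1 moved by 0.98 the other way (exact p = 0.1, adjusted p = 0.133), also without overlap. CEACAM5 to CEACAM1 differed by only -0.07, with overlapping groups (exact p = 0.8), and this ratio turned to 0.07 without parental replicate 1 and was -0.27 without parental replicate 3. No pair can pass an adjusted threshold of 0.05 with 3 libraries per group.

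Part of the CEACAM sequence is shared with other annotated genes, which can make the assignment of reads uncertain. Of all 50-base words in the annotated CEACAM5 transcripts, 16.3% also occur in another gene, against 6.99% for CEACAM6 and 4.28% for CEACAM1. For 75-base words the shares are 13.9%, 2.69% and 1.42%. Of the 570 shared CEACAM5 words of 50 bases, 529 occur in AC243967.1, a gene model on the same strand that overlaps exons of both CEACAM5 and CEACAM6 and covers 16.2% of the CEACAM5 exon bases. That model is listed at 0 reads in all 6 libraries. Only 40 of the 3487 CEACAM5 words of 50 bases occur in CEACAM6. For MSLN and PROM2, no 50-base word occurs in another gene.

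MSLN (chromosome 16, 760762 to 768865, plus strand) was the exception among the tested members. It had 21.6, 22.3 and 24.1 CPM in the parental libraries and 81.8, 77.5 and 86.1 CPM in the knockout libraries. All 3 knockout libraries lay above all parental ones, and parental replicate 3 was close to the others of its group. MSLN rose from 22.7 ± 1.31 to 81.8 ± 4.31 CPM, a log2 fold change of 1.85 (SE 0.10, edgeR adjusted p = 9.91e-05), and 1.85 without parental replicate 3 as well. The neighbouring gene MSLNL lies 562 bases beyond the end of MSLN, on the other strand. MSLNL rose as well (2.28, edgeR adjusted p = 0.00538), but from 4, 5 and 4 reads to 27, 14 and 23 reads per library. Whether the counting used strand was not given in the sources.

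Mesothelin also marks mesothelial cells, so 8 other markers of those cells were examined. Of these, 5 were tested, of which DES rose, from at most 9 to at most 31 reads per library, and 4 did not pass. WT1 had 0 reads in all 6 libraries, and PDPN and KRT5 had at most 3. The summed level of the list was 35.2 to 37.5 CPM in the knockout and 37.7 to 42.0 CPM in the parental libraries, nearly all of it CALB2, which did not pass (-0.14, edgeR adjusted p = 0.32). The part of such cells in the MSLN change was not tested.

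PROM2 (chromosome 2, 95274453 to 95291308, plus strand) showed by far the widest difference of the 7. The parental libraries held 158.6, 164.3 and 169.9 CPM, the narrowest relative spread among the parental values of the tested members. The knockout libraries held 8, 15 and 16 reads, or 0.141, 0.272 and 0.265 CPM, against 9063, 9816 and 9665 reads in the parental ones. Every knockout library was therefore still above the limit of 3 reads. PROM2 fell, with a log2 fold change of -9.49 (SE 0.25, edgeR adjusted p = 1.18e-05), and of -9.51 without parental replicate 3. Summed over libraries, the ratio of parental to knockout CPM was 725, with a 95% counting interval of 530 to 1020. It ranked 18 of the 17809 genes tested by most negative log2 fold change. The 250 bases before its RefSeq start, shown because of the size of the change, hold 1 GC box (capitals) and none of the other motifs searched.
PROM2, chr2:95274199-95274448, plus strand: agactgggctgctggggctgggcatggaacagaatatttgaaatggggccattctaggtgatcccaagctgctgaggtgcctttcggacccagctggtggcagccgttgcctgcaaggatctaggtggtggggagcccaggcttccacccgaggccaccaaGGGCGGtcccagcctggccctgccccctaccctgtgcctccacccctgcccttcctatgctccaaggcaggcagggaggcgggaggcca

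PROM1 (chromosome 4, 15963076 to 16084378, minus strand), the CD133 antigen used to mark tumour-initiating cells, was at or near the limit of detection throughout. It had 5, 4 and 1 reads in the parental libraries and 3, 1 and 1 reads in the knockout libraries. The groups overlapped. The ratio of parental to knockout CPM was 1.98 with a 95% counting interval of 0.617 to 7.39, so no difference was detectable at this depth. The log2 ratio of PROM1 to PROM2 reads, with 0.5 read added to each, moved from a mean of -11.5 to -2.70 without overlap (exact p = 0.1, adjusted p = 0.133). PROM1 was at 1 to 5 reads in every library, so this ratio reflects the PROM2 counts.

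**Figure D3:**
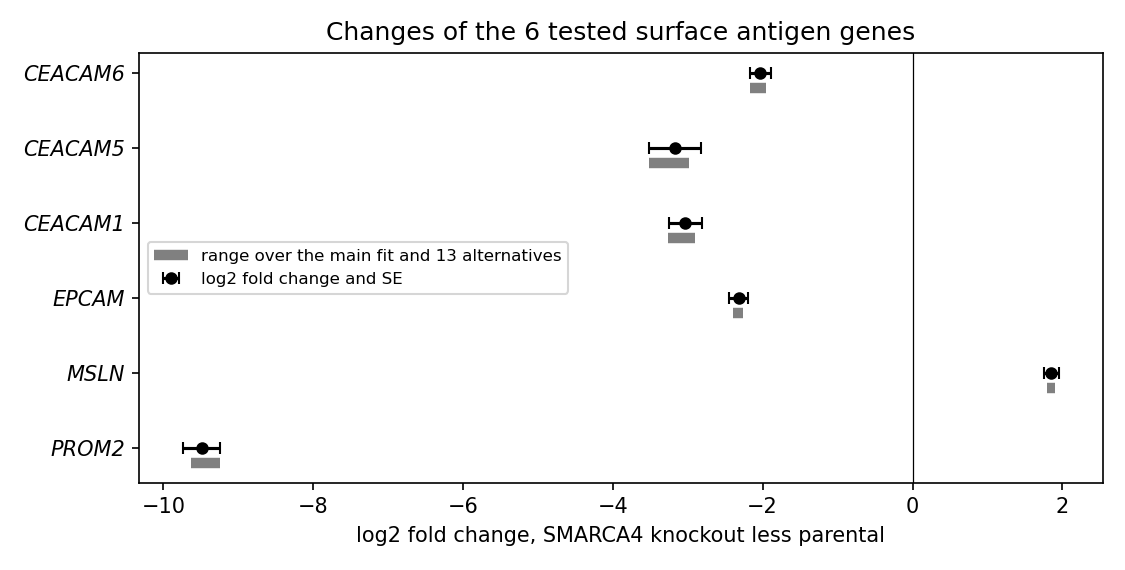
Log2 fold change of the 6 tested surface antigen genes, knockout less parental, as points with bars of 1 SE, and below each a grey bar for the lowest to highest value over the main analysis and 13 alternatives. MSLN lies to the right of 0 at 1.85, PROM2 lies at -9.49, and the other 4 genes lie between -3.17 and -2.03 with their grey bars on the same side of 0.

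Levels of different genes were compared per kb of annotated exon. In the parental group CEACAM6 was highest at 693.8 ± 86.1 CPM per kb. CEACAM5 followed at 151.8 ± 61.8 and EPCAM at 147.0 ± 15.6, which did not differ beyond their spread. In parental replicates 1, 2 and 3, CEACAM5 had 189.9, 185.1 and 80.4 CPM per kb and EPCAM 147.3, 131.3 and 162.5. Their order was thus reversed in parental replicate 3. PROM2 followed at 27.1 ± 0.929, MSLN at 8.85 ± 0.513, CEACAM1 at 3.17 ± 0.738 and PROM1 at 0.00771 ± 0.00483 CPM per kb, each apart from its neighbours by more than the SD. In the knockout CEACAM6 was again highest, at 169.8 ± 9.90 CPM per kb. MSLN came next at 31.95 ± 1.68 and EPCAM at 29.4 ± 1.95, whose libraries overlapped. CEACAM5 stood at 16.9 ± 1.15, CEACAM1 at 0.388 ± 0.0219, PROM2 at 0.0373 ± 0.0121 and PROM1 at 0.00393 ± 0.00277 CPM per kb. MSLN thus passed from below EPCAM, CEACAM5 and PROM2 to above CEACAM5 and level with EPCAM, while PROM2 dropped below CEACAM1.

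**Figure D4:**
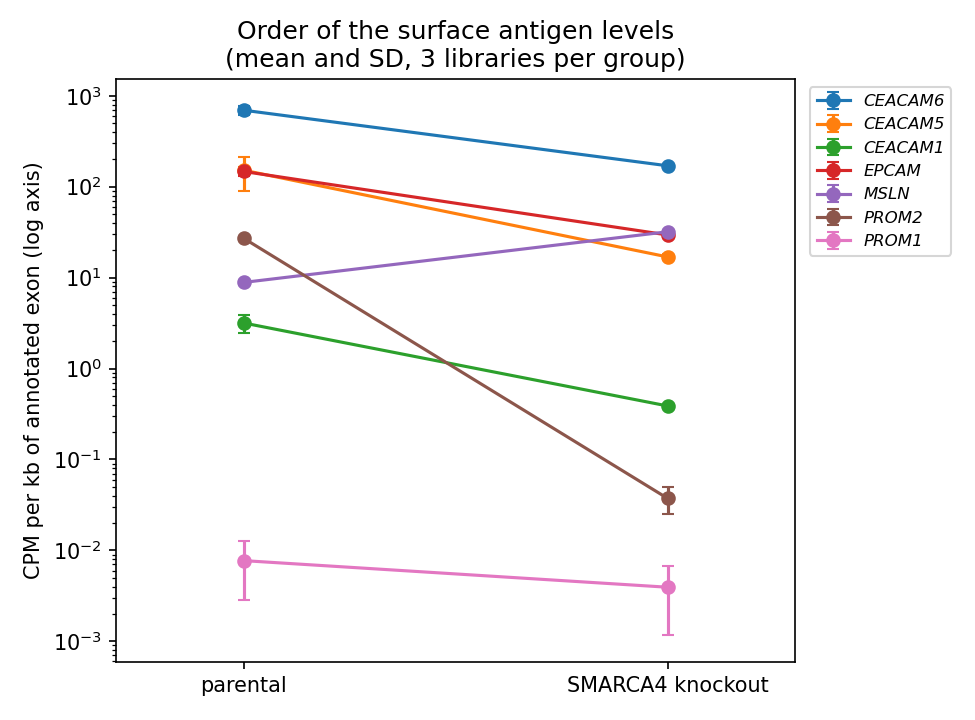
Mean CPM per kb of annotated exon (log axis) of the 7 surface antigen genes in the parental and knockout groups, with SD over 3 libraries. The lines of MSLN and PROM2 cross those of other genes, with MSLN going from 8.85 to 31.95 and PROM2 from 27.1 to 0.0373 CPM per kb.

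The protein-coding genes with the most similar pattern to each member were those with the smallest root mean square difference over the 6 libraries, on centred log2(CPM + 0.5) values, among 10401 candidates. For EPCAM these were BACE2 (difference 0.03) and the desmosomal plakophilin gene PKP2 (0.06), both also highest in parental replicate 3. For CEACAM1 they were the myosin gene MYO5B (0.07) and the receptor gene ERBB3 (0.08), and for CEACAM5 the protease gene CTSS (0.08) and TNFSF15 (0.11), all lowest among the parental libraries in replicate 3. For CEACAM6 they were CD24 (0.06), which encodes another GPI-anchored surface antigen, and LIMA1 (0.07). For MSLN they were MAFK (0.08) and CAVIN2 (0.09). PROM2 had no equally close match, the nearest being GPX2 (0.24) and the membrane protease gene TMPRSS4 (0.30). By construction, a small difference reflects a similar fold change and a similar order of the libraries within each group.

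Among 9 further CEACAM genes only CEACAM7 and CEACAM19 had enough reads to be tested. CEACAM7, which lies 1608 bases from CEACAM5, had 129, 140 and 33 reads in the parental and 33, 22 and 27 in the knockout libraries. It passed narrowly (log2 fold change -1.85, edgeR adjusted p = 0.0499), with overlapping groups, and did not pass in 8 of 12 alternatives, where its adjusted p reached 0.161. Among the parental libraries only replicate 3 overlapped the knockout. Without that library CEACAM7 changed by -2.315 (edgeR adjusted p = 7.04e-07). CEACAM19, named after its values were seen, averaged 11.7 ± 5.83 CPM (parental) and 10.6 ± 0.379 CPM (knockout) (-0.14, edgeR adjusted p = 0.826). Its parental libraries held 14.12, 15.98 and 5.08 CPM, around the 10.25, 10.61 and 11.01 CPM of the knockout. Without parental replicate 3, CEACAM7 and CEACAM19 both fell, with a median of -1.43. In that fit 30.8% of all genes fell and 30.8% rose. CEACAM8, a granulocyte member of the family, had at most 3 reads per library.

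The nearest tested gene on each side of each member that did not overlap it, taken by position, gave 12 genes that are not members. EPCAM-DT, given above, is not among them. Of these 2 rose, 1 fell and 9 did not pass, where 13.3% of all genes tested rose and 14.3% fell. The ribosomal protein gene RPS19, 87709 bases from CEACAM6, changed by 0.09 (edgeR adjusted p = 0.778). On the other side of MSLN from MSLNL, CIAO3, 19432 bases away, changed by -0.03 (edgeR adjusted p = 0.891). ZNF2, 90135 bases from PROM2, changed by 0.38 (0.0648) and KCNIP3, 5995 bases from PROM2, by -1.81 (0.0977). None of these genes passed. The genes that passed were MSLNL, CEACAM7 and PSG5. PSG5 lies 605021 bases from CEACAM1 and had at most 3 reads in a parental library.

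Of 22 tested partners and processing enzymes of these antigens, 10 fell, 5 rose and 7 did not pass. The median log2 fold change was 0.09, and 14.3% of all genes tested fell and 13.3% rose. CLDN7, the claudin that pairs with EPCAM, fell from 285.4 ± 37.2 to 15.7 ± 0.810 CPM (-4.18, edgeR adjusted p = 2.69e-05). ST14, the membrane protease matriptase, fell from 456.4 ± 29.6 to 16.4 ± 0.337 CPM (-4.80). PTPN6, a phosphatase that binds the tail of CEACAM1, fell from 24.4 ± 0.204 to 5.07 ± 0.250 CPM (-2.26, edgeR adjusted p = 7.20e-05). The following were named after their values were seen. MUC16, the binding partner of mesothelin, moved opposite to MSLN, from 39.3 ± 20.1 to 5.66 ± 2.33 CPM (-2.80, edgeR adjusted p = 0.0113). The protease genes ADAM17 (0.66, 0.00295), BACE1 (2.11, 0.00781) and PSEN2 (0.54, 0.0123), whose products can cut EPCAM, rose, as did CTNNB1 (0.54, 0.0228) and HDAC6 (0.53, 0.0347). Leaving out any 1 knockout library left 2 of the partners rising. With parental replicate 3 left out, 13 of the 22 fell and 9 rose, in a fit where 30.8% of all genes fell and 30.8% rose, and the median became -0.26.

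CEACAM5, CEACAM6 and mesothelin depend on the machinery that makes, attaches and remodels GPI anchors, of which a list of 12 genes was examined. All 12 were tested, and 2 rose, 1 fell and 9 did not pass, with a median of 0.11. The shares over all genes tested were 13.3% rising and 14.3% falling. PGAP1, of anchor remodelling, changed by 0.76 (edgeR adjusted p = 0.0142), MPPE1 by 0.50 (0.0252) and PIGA, of the first step of anchor synthesis, by -0.70 (0.0158). None of these 3 calls held in every alternative, with adjusted p up to 0.0759, 0.112 and 0.0881. In the fit lacking parental replicate 3, 6 rose and 2 fell, where 30.8% of all genes rose and 30.8% fell.

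Among 39 other carcinoma surface antigens 32 were tested, of which 14 fell, 7 rose and 11 did not pass, with a median of -0.42. Of all genes tested, 14.3% fell and 13.3% rose. TMPRSS4 fell from 138.5 ± 24.4 to 0.287 ± 0.0914 CPM (-8.91, edgeR adjusted p = 2.69e-05), close to the size seen for PROM2. CDH3, or P-cadherin, fell from 20.4 ± 2.33 to 0.588 ± 0.0373 CPM (-5.11). LYPD3, a GPI-anchored protein, rose from 23.3 ± 2.94 to 123.6 ± 5.94 CPM (2.41, edgeR adjusted p = 9.92e-05). The list overlaps that of the partners above, MUC16 being in both. When parental replicate 3 was omitted, 20 of these genes fell and 7 rose, and the median was -0.63. In that fit 30.8% of all genes fell and 30.8% rose. Leaving out any 1 knockout library left 3 or 4 rising.

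**Figure D5:**
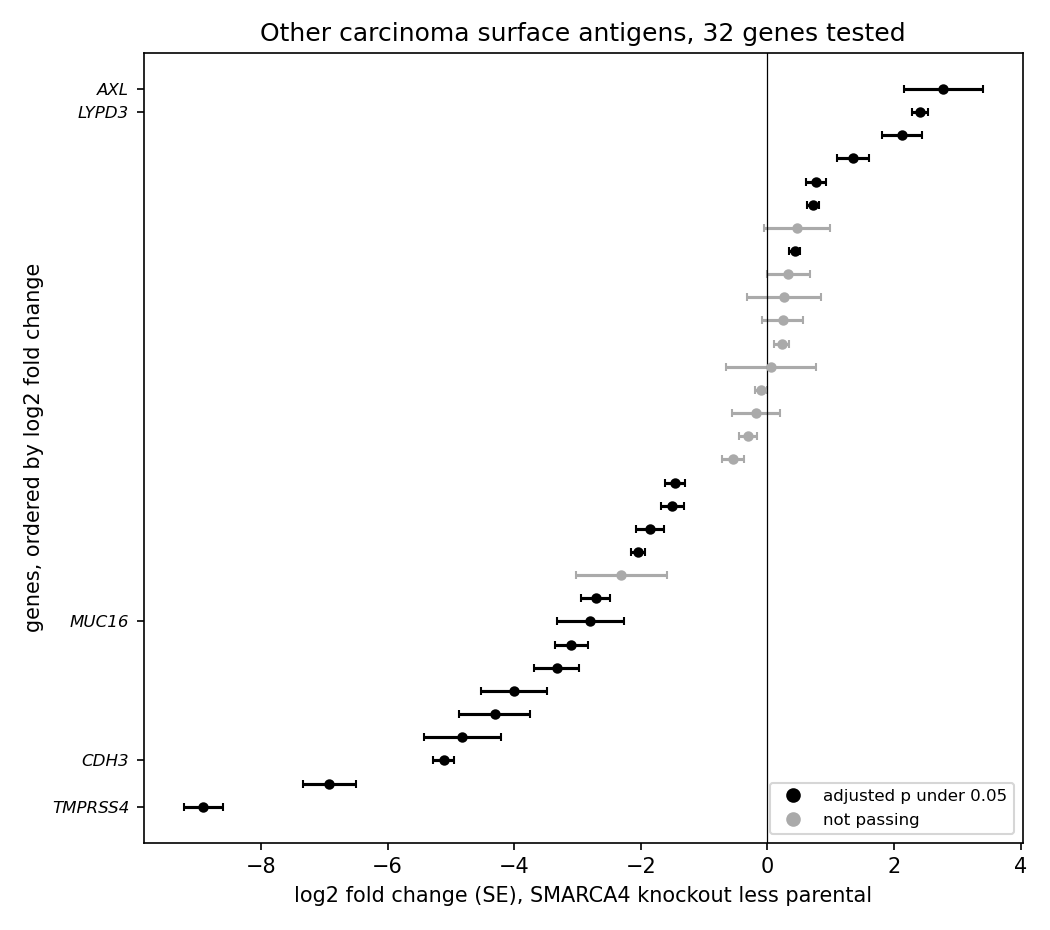
Log2 fold change with SE, knockout less parental, of the 32 tested genes of the list of other carcinoma surface antigens, ordered by value. Labels mark TMPRSS4, CDH3, MUC16, LYPD3 and AXL. Points are black at an adjusted p under 0.05 and grey above it. Black points lie on both sides of 0, with 14 below and 7 above, from TMPRSS4 at -8.91 to AXL, named after its value was seen, at 2.78.

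Of 10 tested markers of tumour-initiating cells used beside PROM1, 3 rose, 1 fell and 6 did not pass, with a median of -0.07. The shares over all genes tested were 13.3% rising and 14.3% falling. Besides BMI1, the rising genes were LGR5 and MSI1, named after their values were seen, which averaged 0.357 and 1.025 CPM in the knockout. BMI1, a Polycomb gene, rose from 40.1 ± 6.77 to 71.1 ± 6.52 CPM (0.83, edgeR adjusted p = 0.00934). ALDH1A3, an aldehyde dehydrogenase gene, had 245.6 ± 169.5 CPM in the parental group, with parental replicate 3 lowest, and 40.0 ± 0.622 CPM in the knockout (-2.62, edgeR adjusted p = 0.0334). That call was lost in 8 of 13 alternatives. Omitting parental replicate 3 gave 4 rising and 6 falling, in a fit where 30.8% of all genes rose and 30.8% fell.

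Transcription regulators of epithelial genes numbered 18 among the tested genes, 9 falling and 3 rising, while 6 did not pass. Their median was -0.81. Across all genes tested, 14.3% fell and 13.3% rose. GRHL2, which activates epithelial junction genes, fell from 83.9 ± 1.03 to 0.293 ± 0.109 CPM (-8.16, edgeR adjusted p = 2.34e-05), OVOL1 from 20.4 ± 2.67 to 0.104 ± 0.0143 CPM (-7.58) and GRHL1 from 23.4 ± 2.77 to 4.002 ± 0.277 CPM (-2.55). The rising genes, named after their values were seen, were ZEB1, a repressor of epithelial genes (4.43, edgeR adjusted p = 0.000557), KLF4 (1.35, 0.0374) and TEAD1 (1.05, 0.00116). Without parental replicate 3, 11 of 19 tested regulators fell and 4 rose, where 30.8% of all genes fell and 30.8% rose.

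Markers of other cells that can carry these antigens were summed as well. PTPRC, the common leukocyte antigen, had 0 reads in all 6 libraries, and the 9 granulocyte and other haematopoietic markers summed to 0.236 to 0.447 CPM in the knockout and 1.14 to 1.40 CPM in the parental libraries, with LYZ and CD79A falling of 3 tested. The 7 endothelial markers summed to 1.71 to 2.42 CPM in the knockout and 0.685 to 1.27 CPM in the parental libraries, with CDH5 rising of 3 tested. The 8 fibroblast markers summed to 53.3 to 58.0 CPM in the knockout and 39.3 to 110 CPM in the parental libraries, where COL3A1 and LUM rose and COL1A1 fell, the 3 genes tested, and THY1 had 0 reads. The part of these cells in the changes was not tested. The epithelial label was checked with 11 lung epithelial markers, of which 6 were tested, and 4 of these fell while none rose. Across all genes tested, 14.3% fell and 13.3% rose. CDH1, or E-cadherin, fell from 340.9 ± 173.8 to 5.56 ± 0.105 CPM (-5.94, edgeR adjusted p = 0.000553), and KRT19 from 1344 ± 114.1 to 31.7 ± 0.688 CPM (-5.40, 8.98e-06). KRT7 fell from 2418 ± 172.5 to 1342 ± 18.4 CPM (-0.85, edgeR adjusted p = 0.00308) and KRT8 from 1655 ± 429.3 to 1019.5 ± 73.1 CPM (-0.70, 0.0467). KRT18 did not pass (-0.42, edgeR adjusted p = 0.0962), nor did NAPSA (0.50, 0.328). Epithelial keratin transcripts were thus present in both groups, while CDH1 and KRT19 were low in the knockout. The part of this shift in the changes of the surface antigens was not tested. These marker genes were named after their values were seen. Lung lineage markers were low, with at most 17 reads of NKX2-1 and 3 of SFTPC in any library.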

How the data were processed

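RNA-seq libraries of H2122 cells were analysed, 3 labelled SMARCA4 knockout and 3 parental. Each deposited file holds raw counts of reads by gene symbol for 1 library. TopHat2 2.1.1, HTSeq 0.11.0 and hg38 are named in the submitters' processing notes. The sources used here do not give the annotation release, strand setting or read length. Rows of unassigned reads (13.8% to 15.3% of each file) were left out.

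After filterByExpr and TMM scaling, the 2 groups were compared by edgeR's robust quasi-likelihood F-test (edgeR 4.0.16, R 4.3.3; group was the only term), with Benjamini-Hochberg adjustment over 17809 genes and a threshold of 0.05. The SE was derived from the F value. The fit was tested on simulated data. Depth was 55120937 to 59917980 gene reads per library. CPM used all gene reads and TMM factors. Positions and exon lengths are from GENCODE 29 (GRCh38). Promoter windows are from RefSeq (GRCh38.p14), which matched 5 of the 7 genes. Both strands were searched for the E-boxes CACCTG and CACGTG and the GC box GGGCGG, as well as the TATA box TATAAA and the AP-1 motif TGANTCA, plus the grainyhead motif AACCNGTT. The promoters were aligned globally (match 2, mismatch -1, gap opening -5, gap extension -1).

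The members and gene lists were chosen with earlier results of these data known. Genes named are the members, SMARCA4, SMARCA2, the 3 passing genes of each related list with the smallest adjusted p and a mean of at least 1 CPM, and the 2 genes most similar to each tested member with a mean of at least 5 CPM; other names are stated as such. Some single-gene results are not reported here. Neighbouring genes were added after the data were examined and were taken by position. The test was repeated with DESeq2 1.42.0 and with limma-voom (limma 3.58.1), with RLE or upper-quartile scaling, unfiltered or keeping genes above 1 CPM in 3 libraries, with replicate number as a block, and without each library in turn.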

Additional observations from a re-analysis of the deposited data

How the results depend on the processing

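All 6 tested surface antigen genes passed with the same direction in each of the 13 alternatives. EPCAM ranged from -2.40 to -2.26, CEACAM1 from -3.26 to -2.90, CEACAM5 from -3.52 to -2.98, CEACAM6 from -2.17 to -1.95, MSLN from 1.79 to 1.90 and PROM2 from -9.63 to -9.24, with adjusted p of at most 0.0149. Over all genes, the replicate block gave 1378 rising and 1662 falling. Leaving out 1 library gave 1221 to 5665 rising and 1471 to 5660 falling, the highest without parental replicate 3. Same-numbered libraries deviated with correlations of -0.08, 0 and -0.10, and differently numbered ones with -0.221 to 0.192. With 3 libraries per group, these values cannot decide whether the numbers pair the samples. The replicate block changed no member's call. The 1 falling CEACAM relative became 0 with upper-quartile factors, the 1 CPM filter, limma-voom and the replicate block, and 0 to 2 with 1 library left out. Partners rising fell to 2 with no low-count filter and 2 with the replicate block, ranging from 2 to 9 with 1 library left out, and partners falling from 6 to 13. GPI genes rising were 1 with no low-count filter and 0 with the replicate block (0 to 6 leaving out 1 library), and falling 0 with the block (0 to 2). Other antigens rising ranged from 3 to 7 and falling from 13 to 20. Tumour-initiating markers falling were 4 with DESeq2 and 0 with limma-voom and the replicate block (0 to 6 leaving out 1 library), and 1 rose with the 1 CPM filter. The log2 ratio of CEACAM5 to CEACAM1 was 0.0715 without parental replicate 1, ranging from -0.27 to 0.0715. SMARCA2, which did not pass anywhere, was at -0.0388 with RLE factors and DESeq2 and -0.0516 with no low-count filter, and ranged from -0.1142 to 0.0862 with 1 library left out. The cause of these shifts was not tested. Depth limits PROM1, and with 3 libraries per group exact tests cannot pass.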
